A study of Mus musculus with 70 samples.

Results

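The growth hormone and STAT5 axis was described by 8 genes, Ghr, Stat5a, Stat5b, Igf1, Igfals, Socs2, Cish and Bcl6, found by their symbols in the deposited expression table of 21859 mouse genes. All 8 symbols were found once and all 8 passed the filter on low values that kept 10371 genes for testing in liver. In liver, growth hormone binds the receptor encoded by Ghr, the kinase JAK2 attached to the receptor phosphorylates STAT5A and STAT5B, and these enter the nucleus as transcription factors. STAT5 drives Igf1, the secreted growth factor of the axis, and Igfals, the acid-labile subunit that keeps IGF1 in the circulation, and it also drives Socs2 and Cish, which encode inhibitors that act back on the receptor. In male mice growth hormone arrives in pulses, so STAT5 activity in liver rises and falls within a day, and BCL6 is a repressor known to bind many of the same sites and to hold down genes that are more active in female liver.

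RNA from sorted liver cells of male chimeric C57BL/6 mice was sequenced in bulk in 23 libraries of 9 groups, part of a study of 70 libraries. The caMEK1 mice carry a doxycycline-inducible, constitutively active MEK1 (oncogene-induced senescence through ERK), the caMKK6 mice an active MKK6 (stress-induced senescence through p38), and the mice labelled Control carry neither. Each chimera holds mCherry cells, which can carry the kinase, and GFP cells around them, and both were sorted by FACS from perfused livers enriched for hepatocytes. The promoter that drives the kinases and the age of the mice are not given in the sources used here. The caMEK1 mice on doxycycline drank 0.2 mg/mL and gave 3 mCherry and 3 GFP libraries at day 7. The caMKK6 mice on doxycycline drank 2 mg/mL and gave 2 and 2 at day 7. The Control mice on doxycycline drank 2 mg/mL and gave 2 and 2 at day 7. Untreated mice, at 0 mg/mL, gave 3 GFP libraries for each of caMEK1, caMKK6 and Control. The caMEK1 mice differ from the other mice on doxycycline in kinase and in dose, which cannot be told apart. The libraries came from 16 mice, of which 7 on doxycycline gave both colours and 9 untreated mice gave GFP cells only. Every untreated liver group holds GFP cells.

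The sequences around the start sites of the members are shown because the factor of the axis is known to bind a short palindrome. RefSeq windows (GRCm38.p6, 250 bases before to 50 bases after a start) were found for 7 members, in 13 windows, and Socs2 was not matched. The motif TTCNNNGAA, which reads the same on both strands, was in 5 of the 13 windows, those of Cish, Bcl6 and Igfals, and in 8.294% of all 32817 windows searched. The first 280 bases of these 5 windows are given, in lower case with matches to the motif in capitals.
Cish, chr9:107296409-107296688, plus strand: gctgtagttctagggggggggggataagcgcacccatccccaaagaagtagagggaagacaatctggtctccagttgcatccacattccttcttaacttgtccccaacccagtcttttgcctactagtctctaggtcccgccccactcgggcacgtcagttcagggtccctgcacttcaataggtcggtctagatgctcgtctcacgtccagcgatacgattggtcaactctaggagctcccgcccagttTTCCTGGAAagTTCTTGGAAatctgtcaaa
Bcl6, chr16:23988823-23989102, minus strand: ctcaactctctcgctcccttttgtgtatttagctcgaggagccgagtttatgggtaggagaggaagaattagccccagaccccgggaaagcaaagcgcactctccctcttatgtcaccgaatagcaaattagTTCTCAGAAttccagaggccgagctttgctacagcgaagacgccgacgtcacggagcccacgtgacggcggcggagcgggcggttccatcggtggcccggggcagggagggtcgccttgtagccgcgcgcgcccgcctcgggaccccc
Bcl6, chr16:23981254-23981533, minus strand: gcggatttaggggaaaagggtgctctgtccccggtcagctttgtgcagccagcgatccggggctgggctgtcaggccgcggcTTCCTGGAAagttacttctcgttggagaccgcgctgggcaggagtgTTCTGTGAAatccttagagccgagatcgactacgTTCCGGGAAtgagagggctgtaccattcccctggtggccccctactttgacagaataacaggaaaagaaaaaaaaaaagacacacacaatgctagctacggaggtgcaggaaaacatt
Igfals, chr17:24877594-24877873, plus strand: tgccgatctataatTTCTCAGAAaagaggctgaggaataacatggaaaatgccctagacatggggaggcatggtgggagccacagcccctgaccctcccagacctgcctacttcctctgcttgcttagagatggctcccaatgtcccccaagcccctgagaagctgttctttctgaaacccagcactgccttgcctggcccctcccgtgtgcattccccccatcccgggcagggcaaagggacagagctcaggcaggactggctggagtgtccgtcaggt
Igfals, chr17:24877981-24878260, plus strand: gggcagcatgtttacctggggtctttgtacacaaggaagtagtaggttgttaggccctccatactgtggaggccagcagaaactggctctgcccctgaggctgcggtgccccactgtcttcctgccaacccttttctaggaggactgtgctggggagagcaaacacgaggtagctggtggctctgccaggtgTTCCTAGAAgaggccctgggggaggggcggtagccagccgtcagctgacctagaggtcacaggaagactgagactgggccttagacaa
The window of Cish held 2 matches just after the start, the second window of Bcl6 held 3, and each of the other 3 windows held 1. The windows of Ghr, Igf1, Stat5a and Stat5b held none. A match in letters is a description of the sequence and says nothing on binding in these cells.

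In GRCm38 the genes lie at chr15:3317760-3583492 on the minus strand (Ghr), chr11:100859351-100885169 on the plus strand (Stat5a), chr11:100780731-100850724 on the minus strand (Stat5b), chr10:87858265-87937042 on the plus strand (Igf1) and chr17:24865997-24882010 on the plus strand (Igfals). Socs2 lies at chr10:95385362-95417180 on the minus strand, Cish at chr9:107296026-107302784 on the plus strand and Bcl6 at chr16:23965052-23988852 on the minus strand. Stat5a and Stat5b are neighbours on chromosome 11 and near-identical over much of their coding sequence. How reads that fit both were assigned is not given in the sources used here, so the split between them is uncertain.

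Levels are FPKM, reads scaled to gene length and library depth, and can be set side by side between genes. Libraries held 9267318 to 14534256 reads, and Pearson's r across genes was 0.881 to 0.993 between any 2 libraries of 1 group. The FPKM values implied between 11 and 1203 reads behind Socs2 and 14 to 514 behind Cish, so their lowest values carry wide counting error, while Ghr rested on 396 reads or more. The induced kinases checked the labels. The frog MEK1 sequence was at 14.1, 5.55 and 8.88 FPKM in caMEK1 mCherry cells and at 0.133, 0.238 and 0.199 in GFP cells of the same mice. The human MKK6 sequence was at 216 and 1211 FPKM in caMKK6 mCherry cells and at 1.51 and 30.9 in GFP cells of the same mice. Both sequences were at 0 in the 4 Control libraries on doxycycline. In Control mice, mCherry RNA in GFP cells stood at 14.3% and 18.8% of its level in mCherry cells of the same mouse. The same share of the kinase sequence was 0.942%, 4.28% and 2.24% in caMEK1 mice and 0.698% and 2.55% in caMKK6 mice. GFP RNA in mCherry cells stood at 6.27% to 19.4% of its level in GFP cells of the same mouse. The mCherry RNA was at 12.2, 4.24 and 6.59 FPKM in caMEK1 mCherry cells, against 4727 and 3985 in Control mCherry cells. Whether sorting was incomplete was not tested. The 10 hepatocyte marker genes together reached 38267 to 108497 FPKM in every library, while the summed levels of 7 other cell type lists were far lower. Albumin took 14.6% to 24.4% of all FPKM in the 6 caMEK1 libraries on doxycycline and 5.2% to 10.9% elsewhere. In FPKM such a shift moves all other genes.

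**Figure D1:**
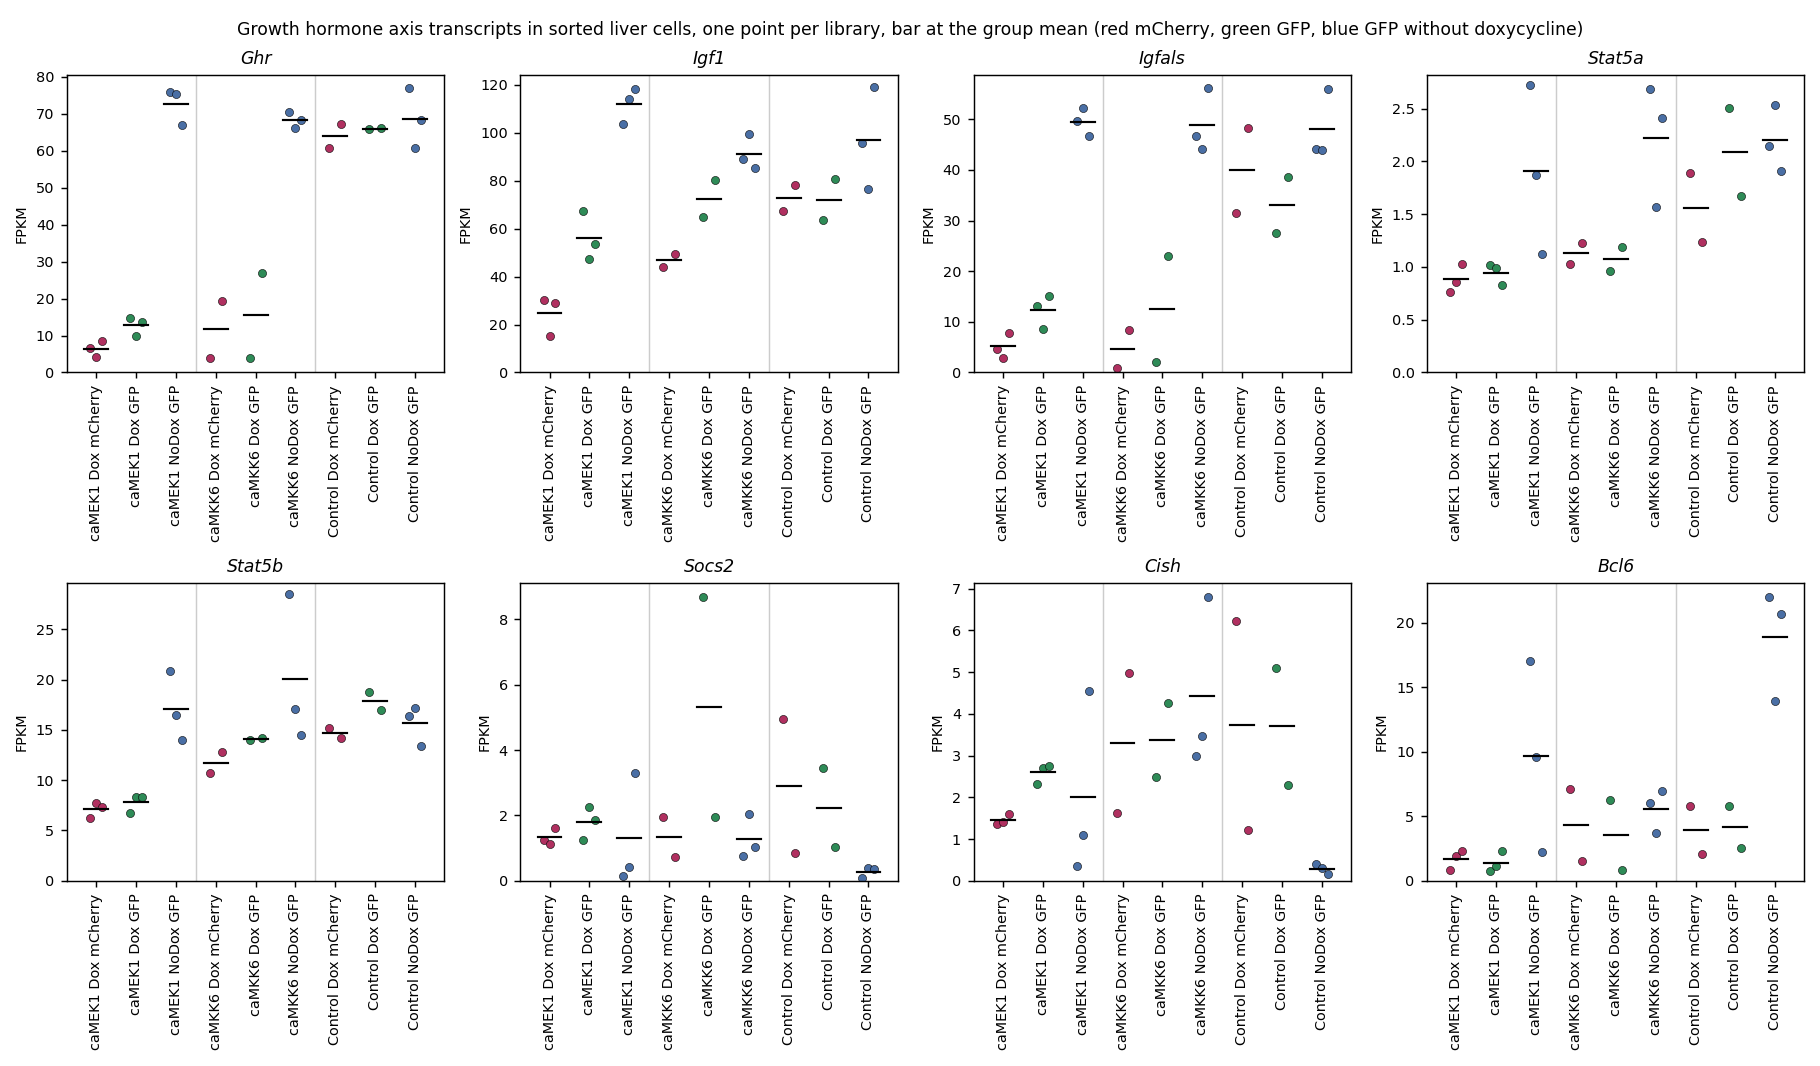
FPKM of the 8 axis genes (linear axes from 0, each gene with its own scale) in the 9 liver groups, 1 point per library and a bar at the group mean, mCherry cells in red, GFP cells on doxycycline in green and untreated GFP cells in blue. Ghr and Igfals are low in all 10 libraries of kinase mice on doxycycline, while Socs2, Cish and Bcl6 spread widely inside groups.

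The receptor gene Ghr and the secreted Igfals were lower in kinase mice on doxycycline, in mCherry and in GFP cells, while Igf1 fell in caMEK1 cells and did not pass in caMKK6 cells. Ghr stood at 3.86 to 27.0 FPKM in the 10 libraries of kinase mice on doxycycline (median 9.17), against 60.7 to 77.0 in the 13 other libraries (median 67.2). Those ranges do not overlap. Igfals stood at 0.954 to 22.95 FPKM in the same 10 libraries, against 27.6 to 56.1 in the other 13. Stat5a stood at 0.765 to 1.23 FPKM in the 10 libraries of kinase mice on doxycycline, against 1.119 to 2.73 in the 13 others. Stat5b stood at 6.22 to 14.1 FPKM in those 10, against 13.3 to 28.5 in the 13 others, so the ranges of both transducers overlap slightly. Igf1 ran from 15.1 to 80.1 FPKM in the 10 libraries of kinase mice on doxycycline and from 63.6 to 119 in the 13 others, which overlap. In bulk RNA of sorted cells, fewer cells that express a gene and less RNA per cell cannot be told apart.

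The caMEK1 mCherry cells were set against the mCherry cells of Control mice that drank doxycycline. Ghr was at 6.63, 4.12 and 8.50 FPKM in caMEK1 mCherry cells, against 60.8 and 67.2 FPKM in Control mCherry cells. The groups are far apart, 9.98-fold in their means, with a log2 fold change of -3.18 ± 0.54 (limma on log2(FPKM + 1), value ± SE, adjusted p = 0.000377). Igf1 was at 30.2, 15.1 and 29.0 FPKM in caMEK1 mCherry cells, against 67.2 and 78.3 in Control mCherry cells. All 3 caMEK1 libraries lay under both Control libraries, with a log2 fold change of -1.57 ± 0.26 (limma, adjusted p = 0.00026). Igfals was at 4.68, 2.94 and 7.85 FPKM in caMEK1 mCherry cells, against 31.6 and 48.3 in Control mCherry cells, a log2 fold change of -2.78 ± 0.64 (limma, adjusted p = 0.00388). Stat5b was at 6.22, 7.76 and 7.31 FPKM in caMEK1 mCherry cells, against 15.2 and 14.2 in Control mCherry cells, a log2 fold change of -0.96 ± 0.22 (limma, adjusted p = 0.00381).

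Thus 4 of the 8 members fell and 0 rose, beside 16.3% of all tested genes that fell and 10.7% that rose. The median log2 fold change was -0.89 over the members and -0.04 over all genes. Stat5a averaged 0.885 ± 0.136 FPKM in caMEK1 mCherry cells (SD, n = 3) and 1.56 ± 0.461 in Control mCherry cells (SD, n = 2), which did not pass (log2 fold change -0.43, limma adjusted p = 0.13). Against untreated caMEK1 GFP cells in place of Control mCherry cells, Stat5a passed at -0.59 (limma, adjusted p = 0.017), and so did Bcl6 at -1.71 (limma, adjusted p = 0.03). Without Control mCherry library 2 the call of Igfals was lost, with a log2 fold change of -2.48 (limma, adjusted p = 0.057). Summed cholangiocyte markers ran from 27.8 to 113 FPKM in caMEK1 mCherry cells, against 9.05 to 13.4 in Control mCherry cells, and 2 of 3 tested markers rose. Spp1 and Sox9 made up nearly all of that sum, and the defining markers Krt19, Krt7 and Epcam stood at 0 to 1.57, 0 to 0.191 and 0.0763 to 0.807 FPKM in caMEK1 mCherry cells. Summed neutrophil markers ran from 4.59 to 22.8 FPKM in caMEK1 mCherry cells, against 1.07 to 1.76 in Control mCherry cells, where Ly6g was at 0, and 2 of 3 tested markers rose. Summed stellate and stromal markers ran from 12.1 to 19.1 FPKM in caMEK1 mCherry cells, against 9.94 to 10.9 in Control mCherry cells, and 1 of 5 tested markers rose. Of 7 pericentral hepatocyte genes 5 fell, and of 7 periportal ones 1 fell. Pericentral genes also fell in caMKK6 mCherry cells (4 of 7), caMEK1 GFP cells (3 of 7) and caMKK6 GFP cells (1 of 7) against their comparators. Of all tested genes 9.29%, 32% and 13.8% fell there, in that order. The part of these genes in the values of the members was not tested.

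In caMKK6 mCherry cells, compared with the same 2 Control mCherry libraries, Ghr was at 4.00 and 19.4 FPKM, against 60.8 and 67.2 in Control mCherry cells. The log2 fold change was -2.68 ± 0.59 (limma, adjusted p = 0.00286), and the 2 caMKK6 mice lay far from each other. Igfals was at 0.954 and 8.45 FPKM in caMKK6 mCherry cells, against 31.6 and 48.3 in Control mCherry cells, a log2 fold change of -3.22 ± 0.70 (limma, adjusted p = 0.00262). Here 2 of the 8 members fell and 0 rose, beside 9.29% of all tested genes that fell and 28.9% that rose. The median log2 fold change was -0.43 over the members and 0.25 over all genes. Of the genes called, 75.67% rose, and 38.37% after scaling every library to a common median.

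Igf1 was at 44.1 and 49.5 FPKM in caMKK6 mCherry cells, against 67.2 and 78.3 in Control mCherry cells. The groups do not overlap, yet the log2 fold change of -0.62 did not pass (limma, adjusted p = 0.0879). It passed after median scaling, at -0.95 (limma, adjusted p = 0.035). Stat5b was at 10.7 and 12.8 FPKM in caMKK6 mCherry cells, against 15.2 and 14.2 in Control mCherry cells, a log2 fold change of -0.31 that passed only under other settings, at -0.64 after median scaling and at -0.60 after quantile normalization (limma, adjusted p = 0.038 and 0.035) among them. The calls of Ghr and Igfals rest on the first mouse. Without caMKK6 mCherry library 1, Ghr stood at -1.67 and Igfals at -2.08 (limma, adjusted p = 0.06 and 0.054). The comparisons of both kinases share the 2 Control libraries, so their values are given side by side and not set against each other.

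In GFP cells of caMEK1 mice on doxycycline, which surround the kinase cells, the comparison was with GFP cells of untreated caMEK1 mice. Ghr was at 14.7, 9.84 and 13.6 FPKM in GFP cells on doxycycline, against 75.8, 75.3 and 67.1 in untreated GFP cells, with a wide gap between the groups. The log2 fold change was -2.44 ± 0.49 (limma, adjusted p = 0.00104). Igf1 was at 67.2, 47.5 and 53.6 FPKM in GFP cells on doxycycline, against 103.4, 114 and 118 in untreated GFP cells, a log2 fold change of -0.9955 ± 0.23 (limma, adjusted p = 0.00298). Igfals was at 13.1, 8.59 and 15.2 FPKM in GFP cells on doxycycline, against 49.6, 52.3 and 46.6 in untreated GFP cells, a log2 fold change of -1.96 ± 0.57 (limma, adjusted p = 0.0129). Each of these 3 genes was lower in all 3 treated libraries than in any untreated one. Of all tested genes 32% fell in this comparison, and how many separated in this way was not counted.

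Both transducers fell as well. Stat5b was at 6.74, 8.34 and 8.32 FPKM in caMEK1 GFP cells on doxycycline, against 20.8, 16.4 and 13.99 in untreated caMEK1 GFP cells, a log2 fold change of -1.03 ± 0.20 (limma, adjusted p = 0.000815). Stat5a was at 1.02, 0.990 and 0.828 FPKM in caMEK1 GFP cells on doxycycline, against 2.73, 1.87 and 1.119 in untreated ones, a log2 fold change of -0.54 ± 0.18 (limma, adjusted p = 0.0268). Bcl6 was at 0.779, 1.14 and 2.32 FPKM in caMEK1 GFP cells on doxycycline, against 17.02, 9.63 and 2.24 in untreated ones. Untreated library 3 lies inside the treated range, and the log2 fold change was -1.87 ± 0.59 (limma, adjusted p = 0.0195).

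In caMEK1 GFP cells 6 of the 8 members fell and 0 rose, beside 32% of all tested genes that fell and 6.46% that rose. The median log2 fold change was -1.01 over the members and -0.25 over all genes. Of the genes called, 16.8% rose, and 41.75% after median scaling. Against Control GFP cells on doxycycline, Ghr, Stat5a and Stat5b were still called, while Igf1 stood at -0.36, Igfals at -1.38 and Bcl6 at -1.08 (limma, adjusted p = 0.28, 0.1 and 0.2). After quantile normalization Igf1 stood at -0.15, Igfals at -1.30 and Stat5a at -0.52 (limma, adjusted p = 0.71, 0.11 and 0.06), and after median scaling Stat5a at -0.31 (limma, adjusted p = 0.24). Single libraries carried some calls. Without caMEK1 GFP library 2 on doxycycline Igfals stood at -1.74, Stat5a at -0.56 and Bcl6 at -1.81 (limma, adjusted p = 0.055, 0.056 and 0.056). Without untreated caMEK1 library 1 Stat5a stood at -0.34 and Bcl6 at -1.33 (limma, adjusted p = 0.16 and 0.11), and without untreated library 2 Stat5a stood at -0.53 and Bcl6 at -1.71 (limma, adjusted p = 0.067 in each). Without treated library 1 Bcl6 stood at -1.68 (limma, adjusted p = 0.064), and without treated library 3 Stat5a stood at -0.50 (limma, adjusted p = 0.069).

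Markers of other cells moved in these GFP cells too. Summed Kupffer and macrophage markers ran from 50.1 to 470 FPKM in caMEK1 GFP cells on doxycycline, against 27.1 to 48.0 in untreated ones, and 2 of 9 tested markers rose. Summed endothelial markers ran from 31.6 to 225 FPKM in caMEK1 GFP cells on doxycycline and from 29.5 to 49.5 in untreated ones, and 2 of 7 tested markers rose. In Control GFP cells they ran from 61.4 to 110 FPKM on doxycycline and from 32.4 to 91.9 untreated, and 0 of 7 were called. Summed neutrophil markers ran from 8.34 to 52.2 FPKM in caMEK1 GFP cells on doxycycline and from 0 to 0.12 in untreated ones, where S100a8, S100a9, Ly6g and Retnlg were all at 0, and 3 of 3 tested markers rose. The hepatocyte sum stood at 78970 to 88673 FPKM in the same treated libraries, against 48401 to 57217 in untreated ones. Albumin alone held 56411 to 66335 FPKM of the treated sums. Of the 10 hepatocyte markers 3 rose and 3 fell, beside 6.46% of all tested genes that rose and 32% that fell. The part of the other cell types in the fall of the members was not tested.

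In GFP cells of caMKK6 mice on doxycycline, against GFP cells of untreated caMKK6 mice, Ghr was at 3.86 and 27.0 FPKM, against 70.5, 66.2 and 68.4 in untreated cells. The log2 fold change was -2.57 ± 0.54 (limma, adjusted p = 0.00502), with 7.00-fold between the 2 treated mice. Igfals was at 2.06 and 22.95 FPKM in caMKK6 GFP cells on doxycycline, against 46.6, 44.2 and 56.1 in untreated ones, a log2 fold change of -2.54 ± 0.64 (limma, adjusted p = 0.0128). Stat5a was at 0.965 and 1.19 FPKM in caMKK6 GFP cells on doxycycline, against 2.68, 1.57 and 2.41 in untreated ones, a log2 fold change of -0.62 ± 0.20 (limma, adjusted p = 0.0414).

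In caMKK6 GFP cells 3 of the 8 members fell and 0 rose, beside 13.8% of all tested genes that fell and 5.21% that rose. The median log2 fold change was -0.52 over the members and -0.07 over all genes. Of the genes called, 27.36% rose, and 39.62% after median scaling. Igf1 was at 64.8 and 80.1 FPKM in caMKK6 GFP cells on doxycycline, against 88.8, 99.6 and 85.3 in untreated ones, which do not overlap and did not pass (log2 fold change -0.33, limma adjusted p = 0.373). Without GFP library 1 on doxycycline, which left 1 treated library, Ghr stood at -1.31, Igfals at -1.05 and Stat5a at -0.54, and the 3 calls were lost. The size of the falls of Ghr and Igfals thus rests on that mouse, while that of Stat5a moved little, from -0.62. Against Control GFP cells on doxycycline Ghr was still called, while Igfals stood at -1.97 and Stat5a at -0.56 (limma, adjusted p = 0.064 and 0.091). The call of Stat5a was lost as well after median scaling (-0.55, limma adjusted p = 0.081), after quantile normalization (-0.60, limma adjusted p = 0.067), without the filter (limma adjusted p = 0.067) and without untreated library 1 (-0.51, limma adjusted p = 0.14) or 3 (-0.57, limma adjusted p = 0.085). The markers of Kupffer cells summed to 39.2 to 198 FPKM in caMKK6 GFP cells on doxycycline and 12.2 to 112 in untreated ones. Those of endothelium summed to 68.1 to 168 FPKM in the cells on doxycycline and 27.2 to 91.2 FPKM in the untreated cells. In Control GFP cells, without a kinase, the Kupffer sum ran from 83.2 to 282 FPKM on doxycycline and from 26.4 to 99.2 untreated. The endothelial sum ran from 61.4 to 110 FPKM there on doxycycline and from 32.4 to 91.9 untreated. The part of these other cells was not tested.

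The difference between the change in caMEK1 GFP cells and the change in caMKK6 GFP cells was tested as such. It was called for 0 of 8 members and for 37 genes in all (0.357% of those tested, limma adjusted p below 0.05). At an unadjusted p below 0.05 limma gave 0 members and 1209 genes, and voom on the reads recovered from the FPKM steps called 0 members and 10 genes.

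**Figure D2:**
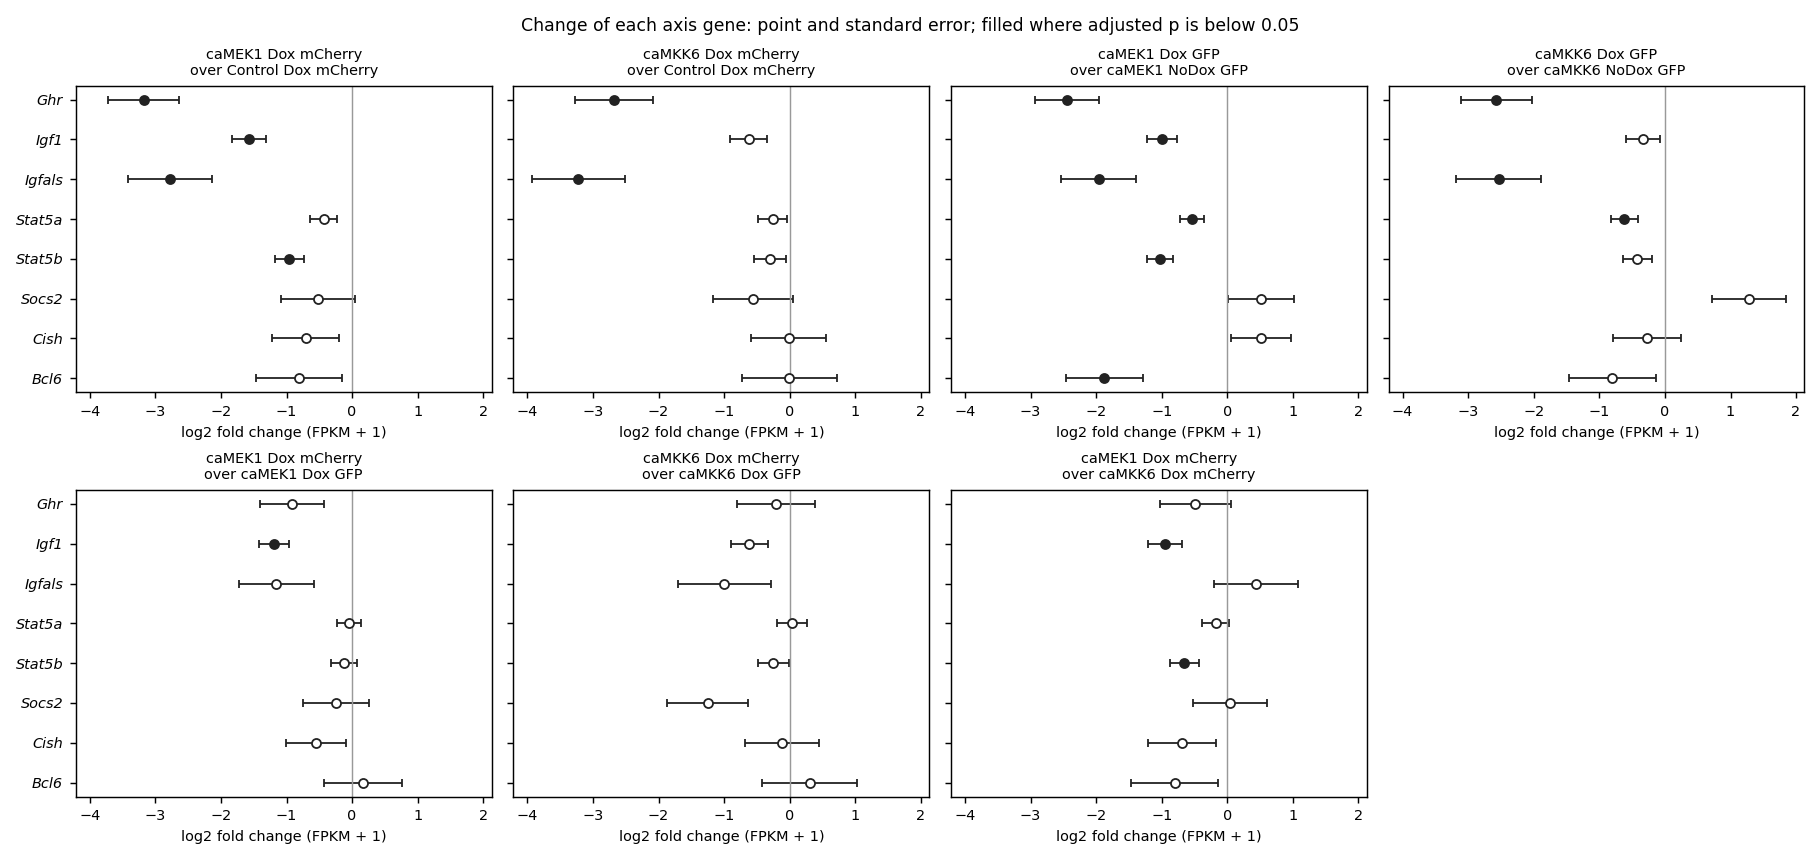
Log2 fold change of FPKM + 1 for each axis gene in 7 comparisons, the first named group over the second, with its standard error as bars and filled points where the limma adjusted p is below 0.05. Ghr and Igfals lie at or under -1.96 in the 4 comparisons of the upper row, and no filled point lies above 0.

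The 2 colours of the same mouse were compared next. In caMEK1 mice Igf1 was at 30.2, 15.1 and 29.0 FPKM in mCherry cells, against 67.2, 47.5 and 53.6 in GFP cells. The mCherry cells held 0.449, 0.317 and 0.541 of the level of their own neighbours, with a log2 fold change of -1.20 ± 0.23 (limma, adjusted p = 0.00491). This was the 1 member of 8 that fell, beside 0.955% of all tested genes that fell, and 0 members rose, beside 3.75% of all tested genes. Of the genes called in this comparison 79.71% rose, and 67.23% after median scaling. Igf1 was called in every alternative tried here.

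With the mouse as a block, 3 members fell between the colours of caMEK1 mice. Of 10371 tested genes, 1994 were called in either direction with the mouse as a random effect and 1277 as a fixed effect. Ghr in mCherry cells stood at 0.450, 0.419 and 0.623 of its level in GFP cells, lower in 3 of 3 mice. Its log2 fold change of -0.92 missed without the block (limma, adjusted p = 0.334) and passed with it (limma, adjusted p = 0.0331 with the mouse as a random effect and 0.00678 as a fixed effect). Igfals in mCherry cells stood at 0.357, 0.343 and 0.517 of its level in GFP cells. Its log2 fold change of -1.15 also missed without the block (limma, adjusted p = 0.299) and passed with it (limma, adjusted p = 0.0242 and 0.00411). Cish was lower in the mCherry cells of all 3 caMEK1 mice, at 0.583, 0.519 and 0.579 of the GFP level, and was not called.

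In caMKK6 mice 0 of 8 members passed between the colours, beside 4.28% of all tested genes. At an unadjusted p below 0.05 limma gave 1 member, Igf1, and 2261 genes, and voom called 0 members and 359 genes. Of the genes called by limma 93.24% rose, and 69.02% after median scaling. Igf1 in mCherry cells stood at 0.680 and 0.619 of the GFP level, Igfals at 0.462 and 0.368 and Socs2 at 0.224 and 0.369, each lower in both mice. How many of all tested genes were lower in both mice was not counted. With the mouse as a random effect Igf1 passed at -0.61 and Socs2 at -1.25 (limma, adjusted p = 0.0275 and 0.0322), and with a fixed mouse effect Igfals passed at -0.99 and Socs2 at the same value (limma, adjusted p = 0.0204 and 0.0234). These fits called 2592 and 954 of 10371 tested genes in either direction. Ghr in mCherry cells stood at 1.04 and 0.719 of the GFP level. Without a block, the log2 fold change of Igfals was -2.48 without caMKK6 GFP library 1 and 0.49 without caMKK6 GFP library 2. Each of these fits sets mCherry cells of both mice against GFP cells of only the mouse left in, so mouse and colour are mixed.

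In Control mice on doxycycline the colours were close for the receptor and the products. Ghr in mCherry cells stood at 0.924 and 1.02 of the GFP level, Igf1 at 1.06 and 0.972 and Igfals at 1.14 and 1.25. None of the 8 members was called, beside 0.106% of all tested genes (limma), and 0 reached an unadjusted p below 0.05, where 1920 genes did. Voom called 0 members and 6 genes. Of the 11 genes called by limma 18.18% rose, and 75% of those called after median scaling.

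**Figure D3:**
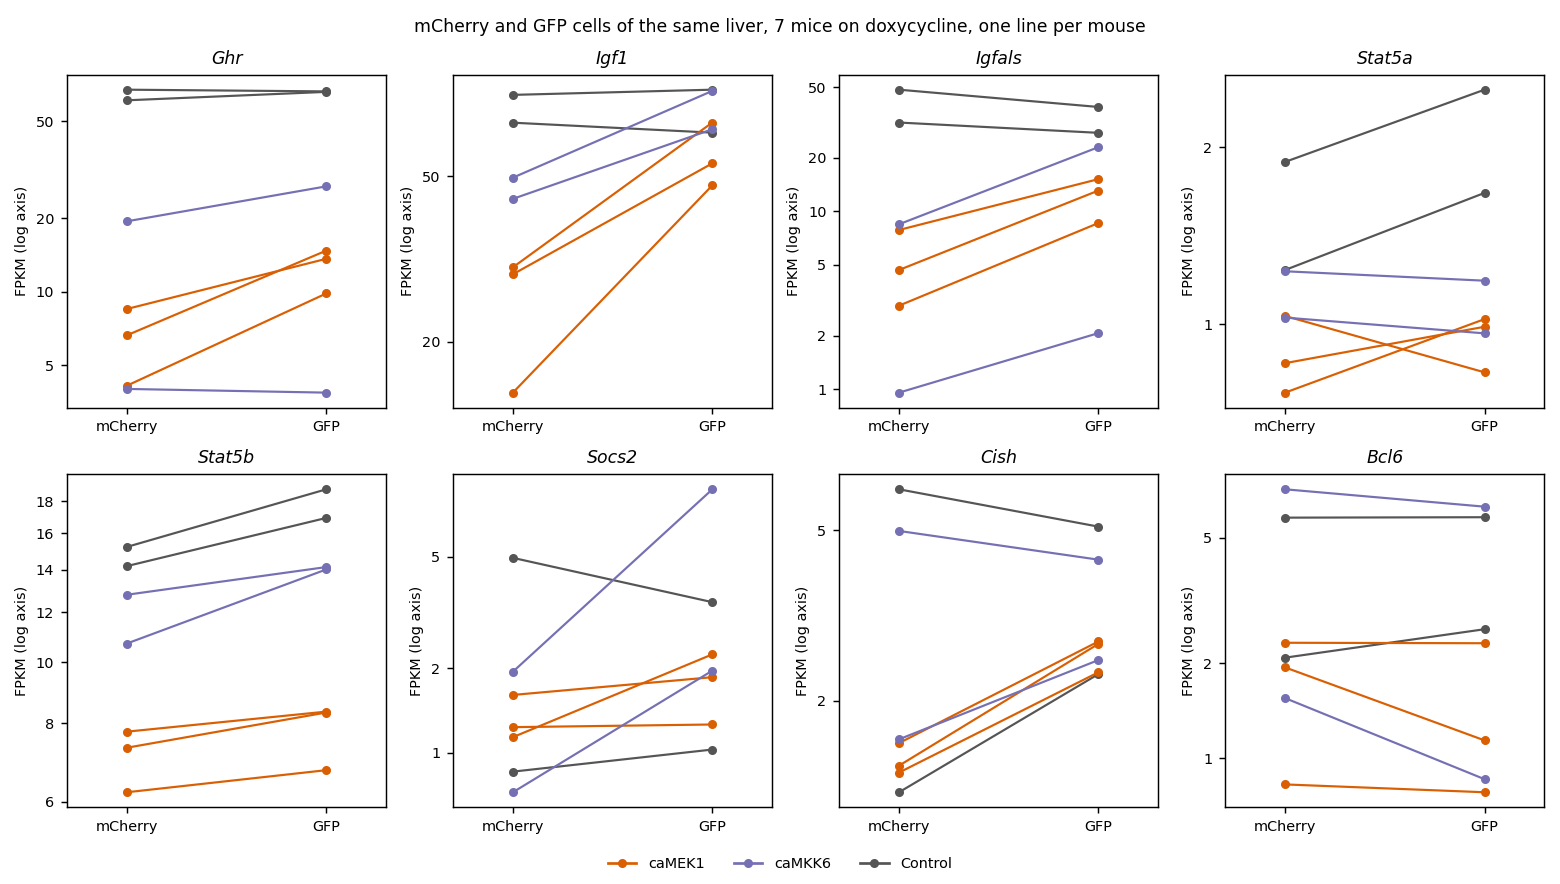
FPKM on log axes in mCherry cells (left) and GFP cells (right) of the same liver for the 8 axis genes, 1 line per mouse, 3 caMEK1 mice in orange, 2 caMKK6 mice in violet and 2 Control mice in grey. Igf1 and Igfals are lower in mCherry cells of all 5 kinase mice, and the lines of Bcl6 lie far apart between mice and run nearly level within most of them.

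Between the kinases, caMEK1 mCherry cells were set against caMKK6 mCherry cells. Igf1 was at 30.2, 15.1 and 29.0 FPKM in caMEK1 mCherry cells, against 44.1 and 49.5 in caMKK6 mCherry cells, a log2 fold change of -0.95 ± 0.26 (limma, adjusted p = 0.0102). Stat5b was at 6.22, 7.76 and 7.31 FPKM in caMEK1 mCherry cells, against 10.7 and 12.8 in caMKK6 mCherry cells, a log2 fold change of -0.65 ± 0.22 (limma, adjusted p = 0.0318). Thus 2 of the 8 members were lower in caMEK1 cells and 0 higher, beside 27.2% of all tested genes that were lower and 4.52% that were higher. The median over all genes was itself -0.31 and the median over the members -0.57. After median scaling the share of higher genes among those called moved to 53.73%, from 14.25%, and neither member was called, with Igf1 at -0.60 and Stat5b at -0.31 (limma, adjusted p = 0.18 and 0.33). Without caMKK6 mCherry library 2, Igf1 stood at -0.87 (limma, adjusted p = 0.065). Stat5b lost its call without either caMKK6 library (-0.77 and -0.54, limma adjusted p = 0.053 and 0.17) and without caMEK1 mCherry library 1 or 3 (-0.57 and -0.68, limma adjusted p = 0.11 and 0.055). Ghr and Igfals were not called, at -0.49 and 0.44.

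Doxycycline and genotype without an active kinase were the background comparisons. In GFP cells of Control mice, Ghr averaged 66.0 ± 0.218 FPKM on doxycycline (SD, n = 2) and 68.7 ± 8.12 untreated (SD, n = 3). Igfals averaged 33.1 ± 7.77 FPKM on doxycycline and 48.0 ± 6.90 FPKM untreated in the same cells. None of the 8 members was called on doxycycline in Control GFP cells, beside 0.0868% of all tested genes (limma). Voom called 0 members and 2 genes. At an unadjusted p below 0.05 limma gave 447 genes and 3 members, Socs2, Cish and Bcl6. For the untreated genotypes limma called 0 genes (0% of those tested) in caMEK1 against Control and in caMKK6 against Control. An unadjusted p below 0.05 was reached by 304 genes, Cish among them, and by 340 genes, Cish and Bcl6 among them. Voom called 0 genes in both.

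Across the 9 group means of Ghr, and likewise of Igfals, the 5 groups without an active kinase stood above the 4 groups of kinase mice on doxycycline. Ghr ran from 72.7 ± 4.87 FPKM in untreated caMEK1 GFP cells to 6.42 ± 2.20 in caMEK1 mCherry cells. Along that order the ranges of neighbouring groups separated at 2 steps, below untreated caMKK6 GFP cells and between Control mCherry cells and caMKK6 GFP cells on doxycycline. The first of these steps lay between 66.22 and 66.14 FPKM, while Control mCherry cells reached up to 67.2 and untreated Control cells down to 60.7. The other lay between 60.8 and 27.0 FPKM. Igf1 was highest in untreated caMEK1 GFP cells (111.9 ± 7.63 FPKM) and lowest in caMEK1 mCherry cells (24.8 ± 8.41), which lay clear of the next group, caMKK6 mCherry cells (46.8 ± 3.88). Neighbouring ranges of Stat5b did not overlap from Control mCherry cells (14.7 ± 0.728 FPKM) through caMKK6 GFP cells on doxycycline (14.1 ± 0.0864) and caMKK6 mCherry cells (11.7 ± 1.48) to caMEK1 GFP cells on doxycycline (7.80 ± 0.920). The first of these gaps lay between 14.19 and 14.15 FPKM, and untreated Control and caMEK1 libraries reached down to 13.3 and 13.99 FPKM. Stat5b was not called in caMKK6 mCherry or GFP cells against their comparators (limma, adjusted p = 0.336 and 0.184). For Bcl6 no step between neighbouring groups was free of overlap.

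The feedback genes and the repressor varied widely among untreated mice, between genotypes and inside some groups. In the 9 untreated libraries Socs2 ran from 0.0916 to 3.31 FPKM, 36.1-fold, and Cish from 0.161 to 6.81 FPKM, 42.4-fold. Bcl6 ran from 2.24 to 22.0 FPKM, 9.84-fold, in the same libraries, while Ghr ran over 1.27-fold and Igf1 over 1.56-fold. Part of these ranges lay between genotypes. Cish averaged 4.42 FPKM in untreated caMKK6 mice and 0.284 in untreated Control mice, 15.6-fold apart with no overlap. Socs2 was 4.55-fold higher in untreated caMKK6 mice and Bcl6 3.38-fold higher in untreated Control mice, also with no overlap. None of the 3 passed (limma, adjusted p = 0.695 for Cish and 1 for Socs2 and Bcl6). The widest range inside a group was that of untreated caMEK1 mice for all 3 genes. Untreated caMEK1 mice had Socs2 at 0.160, 0.436 and 3.31 FPKM, Cish at 0.365, 1.10 and 4.56 and Bcl6 at 17.02, 9.63 and 2.24. Mouse 3 was high in both inhibitors and low in the repressor. Untreated Control mice had Cish at 0.396, 0.296 and 0.161 FPKM and Bcl6 at 22.0, 13.9 and 20.7, low in the inhibitor and high in the repressor in all 3. Untreated caMKK6 mice had Cish at 3.00, 3.46 and 6.81 FPKM and Bcl6 at 6.05, 3.72 and 6.94.

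On doxycycline the 2 Control mice also differed from each other, and alike in both colours. Control mouse 1 had Cish at 6.23 FPKM in mCherry and 5.10 in GFP cells, and Control mouse 2 had 1.22 and 2.31. Socs2 was at 4.95 and 3.44 FPKM in mouse 1 and at 0.857 and 1.03 in mouse 2, mCherry cells first. Bcl6 was at 5.80 and 5.82 FPKM in mouse 1 and at 2.08 and 2.57 in mouse 2. Over the 7 mice sorted for both colours, the median difference between the colours of a mouse was 0.16 for Bcl6 on the scale of log2(FPKM + 1), against a median range inside the groups of 0.94. For Cish these values were 0.50 and 0.88, and for Socs2 0.42 and 0.79. The order turned for Igf1, with 0.68 between colours and 0.30 inside groups, for Igfals (0.87 and 0.60) and for Ghr (0.46 and 0.34). It did not turn for Stat5a (0.15 and 0.28) or Stat5b (0.16 and 0.27). The hour at which the livers were taken is not given in the sources used here, and its part in this spread was not tested.

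The 3 genes did not share 1 direction in kinase mice on doxycycline. Bcl6 ran from 0.779 to 7.14 FPKM in the 10 libraries of kinase mice on doxycycline, against 2.08 to 22.0 in the 13 others. Cish ran from 1.36 to 4.98 FPKM in the 10 and from 0.161 to 6.81 in the 13. Socs2 ran from 0.723 to 8.68 FPKM in the 10, the highest in GFP cells of caMKK6 mouse 1, and from 0.0916 to 4.95 in the 13. The median of Socs2 was 1.73 FPKM in the 10 and 0.857 in the 13, and that of Bcl6 was 1.75 in the 10 and 6.05 in the 13. None of these 3 genes was called in mCherry cells of either kinase against Control mCherry cells. Without caMKK6 GFP library 2 on doxycycline, Socs2 was called higher in caMKK6 GFP cells than in untreated ones, at 2.13 (limma, adjusted p = 0.016), on the first mouse alone.

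**Figure D4:**
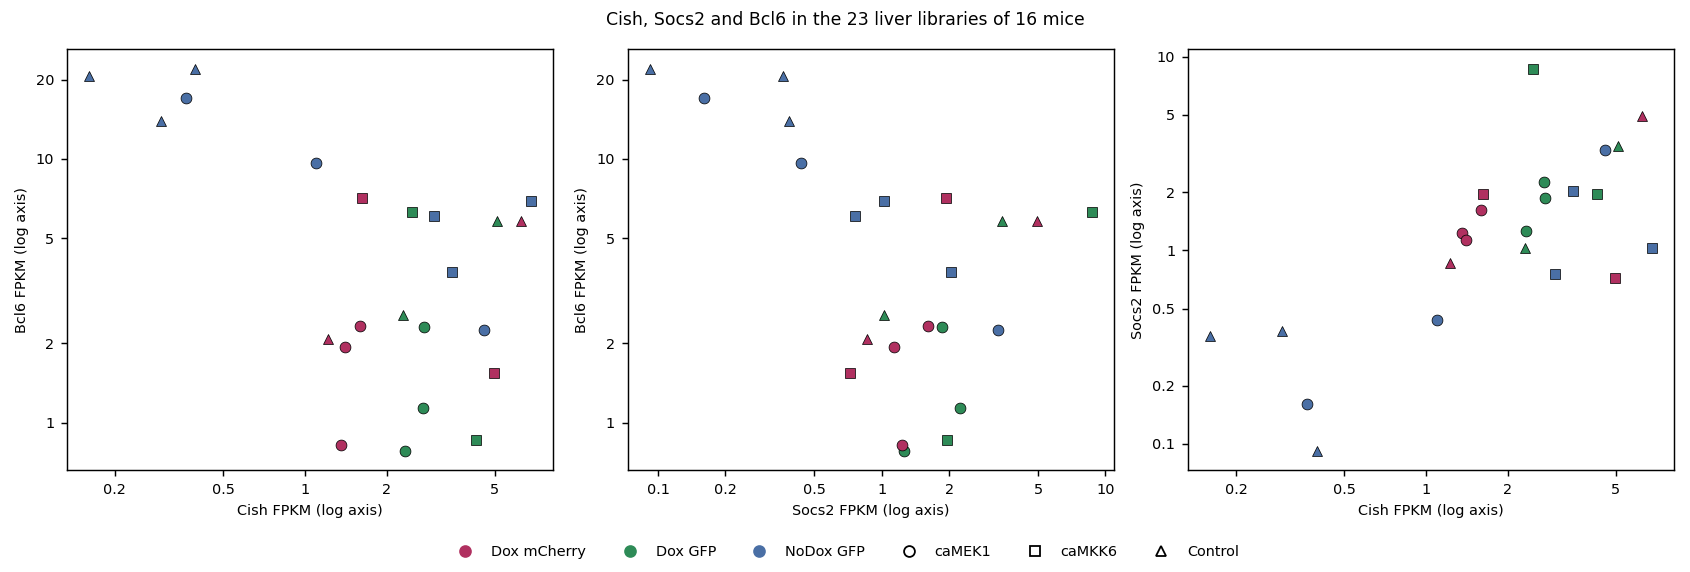
Bcl6 against Cish, Bcl6 against Socs2 and Socs2 against Cish, in FPKM on log axes, 1 point for each of the 23 liver libraries of 16 mice (colour for the cells, shape for the genotype). The 4 libraries with Bcl6 above 13 FPKM have Cish under 0.4 FPKM. Libraries of kinase mice on doxycycline run from 0.779 to 7.14 FPKM in Bcl6 and from 1.36 to 4.98 FPKM in Cish.

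The genes whose pattern was most like each member were taken by Pearson's r of log2(FPKM + 1) over the 23 libraries, 3 per member. For Ghr these were Hsd3b3, Crot and Arl6ip1, each at 0.99. For Igfals they were Serpinf1 and Slc30a10 at 0.98 and Cyp2f2 at 0.97. For Igf1 they were Hacl1 and Fbp1 at 0.95 and Dpyd at 0.94, and for Stat5b Nfix at 0.95, Coq8a at 0.93 and Hpd at 0.92. For Stat5a they were Kank1 at 0.92, AI661453 at 0.91 and Bcar3 at 0.89. The feedback genes had weaker partners, for Socs2 Gpcpd1 at 0.78, Stat3 at 0.69 and Fgg at 0.68, and for Cish Arid5b at 0.63 with Onecut1 and Alas1 at 0.61. For Bcl6 they were Mrpl9 at 0.83 and Fads6 and Tmem129 at 0.81. Among the members Ghr and Igfals shared an r of 0.97, Socs2 and Cish 0.62, and Cish and Bcl6 -0.50. The points share mice, since 7 mice enter with both colours, and 10 of the 23 libraries are of kinase mice on doxycycline, so high values largely restate the gap between these and the rest.

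Onecut1, which encodes the liver transcription factor HNF6 and is known to be raised by growth hormone, was at 1.76, 3.20 and 17.05 FPKM in untreated caMEK1 mice. The value of 17.05 belongs to mouse 3, which was also high in Cish and Socs2. Onecut1 is among the 3 genes picked as most like Cish over these same libraries, so the shared high value restates that choice. In untreated Control mice it was at 2.68, 1.296 and 2.40 FPKM, and in untreated caMKK6 mice at 3.43, 13.002 and 12.5. In caMEK1 mCherry cells it was at 1.81, 2.22 and 3.32 FPKM and in Control mCherry cells at 6.55 and 6.19.

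Genes known to depend on the pulsed growth hormone of males fell furthest of the lists examined. All lists were written from general knowledge with earlier results of these data known. Of 11 tested male-biased targets 11 fell in caMEK1 mCherry cells and 9 in caMKK6 mCherry cells against Control mCherry cells. In GFP cells on doxycycline 11 fell in caMEK1 and 10 in caMKK6 mice against untreated cells of their genotype. Of all tested genes 16.3%, 9.29%, 32% and 13.8% fell in these 4 comparisons, in the same order. In them 0 genes of the list rose, and the median log2 fold changes over the list were -5.18, -5.36, -3.87 and -4.35, beside -0.04, 0.25, -0.25 and -0.07 over all genes. Elovl3, which elongates fatty acids, averaged 0.233 ± 0.0921 FPKM in caMEK1 mCherry cells (SD, n = 3) and 314 ± 11.7 in Control mCherry cells (SD, n = 2), a log2 fold change of -8.00 ± 0.31 (limma, adjusted p = 8.65e-12). Hsd3b5, a steroid-metabolising enzyme, averaged 0.369 ± 0.172 FPKM in caMEK1 GFP cells on doxycycline and 159 ± 24.1 in untreated ones (SD, n = 3 each), a log2 fold change of -6.87 ± 0.18 (limma, adjusted p = 2.91e-14). Cyp7b1, which hydroxylates oxysterols and steroids, averaged 1.97 ± 0.717 FPKM in caMEK1 mCherry cells (n = 3) and 377 ± 78.6 in Control mCherry cells (n = 2). The targets Cyp4a12a and Cyp4a12b and the 2 Mup genes of the list have near-identical copies, so their single values are uncertain. Between colours of the same kinase mice 0 of the 11 were called in the fit that ignores the pairing of colours by mouse (limma). In that fit 0.955% of all tested genes fell and 3.75% rose in caMEK1 mice, and 4.28% were called in caMKK6 mice. Targets near the floor, such as Elovl3 at 0.233 FPKM in caMEK1 mCherry cells and Hsd3b5 at 0.369 in caMEK1 GFP cells, can differ little on the log2(FPKM + 1) scale. The count of 0 therefore does not show that the colours were alike. With the mouse as a fixed effect 3 fell in caMEK1 mCherry cells, and 1 rose and 2 fell in caMKK6 mCherry cells, relative to GFP cells. With a random mouse effect 0 changed in caMEK1 mice, and 1 rose and 1 fell in caMKK6 mice. The fixed effect called 1277 and 954 of 10371 tested genes in caMEK1 and caMKK6 mice, and the random effect 1994 and 2592. Without library 1 on doxycycline 6 of the 11 fell in caMKK6 GFP cells.

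Genes that are more active in female liver and are held down by male growth hormone were counted next. Of 16 tested, 5 rose in caMEK1 and 3 in caMKK6 mCherry cells against Control mCherry cells, and 4 rose in caMEK1 and 3 in caMKK6 GFP cells against untreated cells. Of all tested genes 10.7%, 28.9%, 6.46% and 5.21% rose in these 4 comparisons, so the count in caMKK6 mCherry cells was not above the background. In the same 4 comparisons 0 fell, and the median log2 fold changes were 1.48, 0.52, 1.35 and 0.15, beside -0.04, 0.25, -0.25 and -0.07 over all genes. After median scaling 1 fell in caMKK6 mCherry cells, and 1 fell in caMEK1 GFP cells without both colours of caMEK1 mouse 3. With the mouse as a random effect 5 rose in each comparison of caMKK6 cells. Cyp17a1, an enzyme of steroid synthesis, averaged 90.3 ± 20.2 FPKM in caMKK6 mCherry cells and 1.66 ± 0.0888 in Control mCherry cells (SD, n = 2 each), a log2 fold change of 5.09 ± 0.61 (limma, adjusted p = 2.3e-05). Cux2, a repressor found in female liver, averaged 4.69 ± 1.57 FPKM in caMEK1 mCherry cells (SD, n = 3) and 0.0283 ± 0.0287 in Control mCherry cells (SD, n = 2), a log2 fold change of 2.43 ± 0.58 (limma, adjusted p = 0.0047). Voom did not call Cux2 in caMEK1 mCherry cells (adjusted p = 0.09). These counts moved with the pseudocount. At 0.1 FPKM in place of 1, 8 rose in caMEK1 and 6 in caMKK6 mCherry cells and 5 in caMKK6 GFP cells. Voom called 3 in caMEK1 mCherry cells. Without caMEK1 GFP library 3 on doxycycline 2 rose in caMEK1 GFP cells, and without caMKK6 GFP library 1 on doxycycline 1 rose in caMKK6 GFP cells.

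Among 8 tested partners of IGF1, Igf2 and Igfbp3 rose in caMEK1 mCherry cells, where 10.7% of all tested genes rose. Igf2, a growth factor of fetal liver, was at 3.35 to 67.3 FPKM in the 3 caMEK1 mCherry libraries and listed at 0 in both Control mCherry libraries. It averaged 33.4 ± 32.1 FPKM in caMEK1 mCherry cells and 1.25 ± 1.57 in GFP cells of the same mice (SD, n = 3 each), a log2 fold change of 3.43 ± 0.63 (limma, adjusted p = 0.0032). Igfbp3, the carrier of IGF1 that the product of Igfals binds, averaged 58.4 ± 44.4 FPKM in caMEK1 mCherry cells (SD, n = 3) and 1.31 ± 0.0667 in Control mCherry cells (SD, n = 2), a log2 fold change of 4.16 ± 0.79 (limma, adjusted p = 0.00094). The call of Igf2 against Control mCherry cells was not made by voom (adjusted p = 0.058). The carrier Igfbp2 was the 1 partner that fell in caMKK6 mCherry cells, with 48.8 ± 21.6 FPKM there and 202 ± 6.59 in Control mCherry cells (SD, n = 2 each; limma, adjusted p = 0.013). There 9.29% of all tested genes fell, so 1 of 8 was near the background. Igfbp2 was not called without Control mCherry library 1 or 2 or without caMKK6 mCherry library 2. In caMEK1 GFP cells 0 partners were called (limma), but 1 rose at a pseudocount of 0.1, after quantile normalization and without both colours of mouse 3, and 1 fell without GFP library 2 on doxycycline. After median scaling 2 partners fell in caMKK6 mCherry cells, and 1 rose and 2 fell there against untreated caMKK6 GFP cells. A fall of 1 partner was called in caMKK6 GFP cells with the mouse as a random effect and without GFP library 2 on doxycycline. Against untreated caMEK1 GFP cells 1 partner fell in caMEK1 mCherry cells. Igfbp1 was the 1 of 8 partners that rose in caMKK6 GFP cells, where 5.21% of all tested genes rose. It averaged 3447 ± 3890 FPKM on doxycycline (SD, n = 2), against 92.9 ± 39.5 in untreated cells (SD, n = 3; limma, adjusted p = 0.0034). That call was lost without caMKK6 GFP library 1 on doxycycline (limma, adjusted p = 0.13) and against Control GFP cells on doxycycline (limma, adjusted p = 0.27).

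Other receptors that use JAK kinases did not move as 1 group. Of 8 tested, 3 rose and 2 fell in caMEK1 mCherry cells, 2 rose and 1 fell in caMKK6 mCherry cells, 3 rose and 1 fell in caMEK1 GFP cells and 2 rose and 1 fell in caMKK6 GFP cells. In caMKK6 mCherry cells that count stands beside 28.9% of all tested genes that rose and 9.29% that fell, so it was not above the background for rises and near it for falls. In caMEK1 mCherry cells 10.7% of all genes rose and 16.3% fell, in caMEK1 GFP cells 6.46% and 32%, and in caMKK6 GFP cells 5.21% and 13.8%. Lifr, the receptor of leukaemia inhibitory factor, fell in these 4 comparisons, with 20.8 ± 6.48 FPKM in caMEK1 mCherry cells (SD, n = 3) and 100 ± 31.9 in Control mCherry cells (SD, n = 2; log2 fold change -2.22 ± 0.42, limma adjusted p = 0.00091). In caMKK6 GFP cells that call was lost without library 1 on doxycycline (-1.08, limma adjusted p = 0.3), without untreated library 3 (-1.28, limma adjusted p = 0.059) and after quantile normalization (-1.11, limma adjusted p = 0.079), as it was in caMEK1 GFP cells after quantile normalization (-1.02, limma adjusted p = 0.056). Osmr, the oncostatin M receptor, rose in the same 4, by 1.09, 0.69, 1.23 and 1.10 on the log2 scale. In caMKK6 mCherry cells that call was lost after median scaling (0.36, limma adjusted p = 0.13), without Control library 2 (0.70, limma adjusted p = 0.057) and without caMKK6 library 1 (0.52, limma adjusted p = 0.11). Lepr, the leptin receptor, rose in both comparisons of caMKK6 cells, with 33.4 and 167 FPKM in caMKK6 mCherry cells, against 0.278 and 0.320 in Control mCherry cells (log2 fold change 5.87 ± 1.05, limma adjusted p = 0.00069). The call in caMKK6 GFP cells was lost without library 1 on doxycycline (2.29, limma adjusted p = 0.21). The counts of the list moved as well, to 1 fall in caMEK1 mCherry cells without Control library 1 or 2 or caMEK1 library 1 or 2, and to 1 rise in caMKK6 mCherry cells without Control library 2 or caMKK6 library 1. They moved to 2 falls in caMKK6 mCherry cells without caMKK6 library 2, and to 2 falls in caMEK1 GFP cells without library 3 on doxycycline or against Control GFP cells on doxycycline. Without library 1 on doxycycline 1 rose in caMKK6 GFP cells. After median scaling 1 rose in caMKK6 mCherry cells, and without the filter or after quantile normalization 1 fell in caMEK1 mCherry cells.

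Of 7 tested JAK and other STAT genes, 0 rose and 0 fell in caMEK1 mCherry cells, 1 rose and 1 fell in caMKK6 mCherry cells, 2 rose and 0 fell in caMEK1 GFP cells and 2 rose and 2 fell in caMKK6 GFP cells (limma). Of all tested genes 10.7%, 28.9%, 6.46% and 5.21% rose in these 4 comparisons, and 16.3%, 9.29%, 32% and 13.8% fell. Against Control GFP cells on doxycycline the counts of the list turned to 0 rises and 3 falls in caMEK1 GFP cells, and 0 rose in caMKK6 GFP cells. Against untreated caMKK6 GFP cells 2 rose in caMKK6 mCherry cells. Stat3, which carries interleukin-6 signals, averaged 23.4 ± 1.06 FPKM in caMEK1 GFP cells on doxycycline and 13.9 ± 3.59 in untreated ones (SD, n = 3 each; log2 fold change 0.74, limma adjusted p = 0.028). In Control GFP cells on doxycycline it averaged 22.9 ± 2.77 FPKM (SD, n = 2), close to the caMEK1 mean. The call in caMEK1 GFP cells was lost without untreated library 1 or 2 (limma, adjusted p = 0.097 and 0.099) and without treated library 1 or 2 (limma, adjusted p = 0.061 and 0.074), and the rises in that comparison were then 1. Without treated library 3, 1 gene of the list fell in caMEK1 GFP cells. In caMKK6 mCherry cells 0 rose without Control library 2 and after median scaling or quantile normalization, and 0 fell without Control library 1 or caMKK6 library 1. With caMKK6 GFP library 1 on doxycycline left out, 1 gene of this list rose and 0 fell in caMKK6 GFP cells. With caMKK6 GFP library 2 on doxycycline or untreated caMKK6 library 1 or 2 left out, 1 fell, as it did without the filter and with the mouse as a random effect.

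Of 13 tested SOCS, phosphatase and PIAS genes, which restrain JAK and STAT signals, 4 rose and 0 fell in caMEK1 mCherry cells and 6 rose and 0 fell in caMKK6 mCherry cells, where 10.7% and 28.9% of all tested genes rose. After median scaling and after quantile normalization 3 rose in caMKK6 mCherry cells. Against untreated caMEK1 GFP cells 2 rose and 1 fell in caMEK1 mCherry cells. In GFP cells 2 rose and 2 fell in caMEK1 and 3 rose and 0 fell in caMKK6 mice. There 6.46% and 5.21% of all tested genes rose and 32% and 13.8% fell. Socs3, an inhibitor induced by interleukin-6 signals, averaged 24.0 ± 5.29 FPKM in caMEK1 GFP cells on doxycycline and 4.33 ± 2.29 in untreated ones (SD, n = 3 each), a log2 fold change of 2.32 ± 0.52 (limma, adjusted p = 0.0024). It averaged 50.6 ± 35.3 FPKM in caMKK6 GFP cells on doxycycline (SD, n = 2) and 6.88 ± 3.44 in untreated ones (SD, n = 3), and 12.7 ± 1.13 in Control GFP cells on doxycycline (SD, n = 2). Against that Control group 0 genes of the list rose in either kinase (limma), and 1 fell in caMEK1 GFP cells. Without Control mCherry library 2, 2 of the 13 rose in caMEK1 and 3 in caMKK6 mCherry cells, and without caMEK1 mCherry library 2 likewise 2 rose in caMEK1 cells. In caMEK1 GFP cells 1 fell without any 1 of the 6 libraries, without the filter, after either scaling and in voom, and 1 rose without untreated library 2 or treated library 3. In caMKK6 GFP cells 0 rose without library 1 on doxycycline, where Socs3 stood at 1.85 (limma, adjusted p = 0.18), and 5 rose and 2 fell without library 2.

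Acute phase genes, secreted by hepatocytes in inflammation, rose in GFP cells, 13 of 15 tested in caMEK1 and 12 in caMKK6 mice, beside 6.46% and 5.21% of all tested genes, and 0 fell. In caMEK1 GFP cells 1 fell without library 3 on doxycycline, without untreated library 2 and with the mouse as a random effect. Against Control GFP cells on doxycycline the counts were 4 and 7. Without caMKK6 GFP library 1 on doxycycline 7 rose in caMKK6 GFP cells. Lcn2, an iron-scavenging protein, averaged 732 ± 508 FPKM in caMEK1 GFP cells on doxycycline and 1.54 ± 0.486 in untreated ones (SD, n = 3 each), a log2 fold change of 7.93 ± 0.54 (limma, adjusted p = 3.6e-08). In mCherry cells 2 rose and 2 fell in caMEK1 and 4 rose and 2 fell in caMKK6 mice against Control mCherry cells, beside 10.7% and 28.9% of all tested genes that rose and 16.3% and 9.29% that fell, shares near those of the list. Against untreated GFP cells of their genotype 7 rose and 1 fell in caMEK1 mCherry cells, and 0 fell in caMKK6 mCherry cells. After median scaling 1 rose in caMKK6 mCherry cells, without the filter 2 rose, and after quantile normalization 1 fell. In caMKK6 mCherry cells 2 rose without any 1 of the 4 libraries compared, 1 fell without Control library 1 and 0 fell without Control library 2 or caMKK6 library 1. In caMEK1 mCherry cells 1 fell without Control library 2. Between colours of caMEK1 mice 5 of the 15 fell in mCherry cells relative to GFP cells and 0 rose. With the mouse as a block 11 fell there as a random effect and 15 as a fixed effect.

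**Figure D5:**
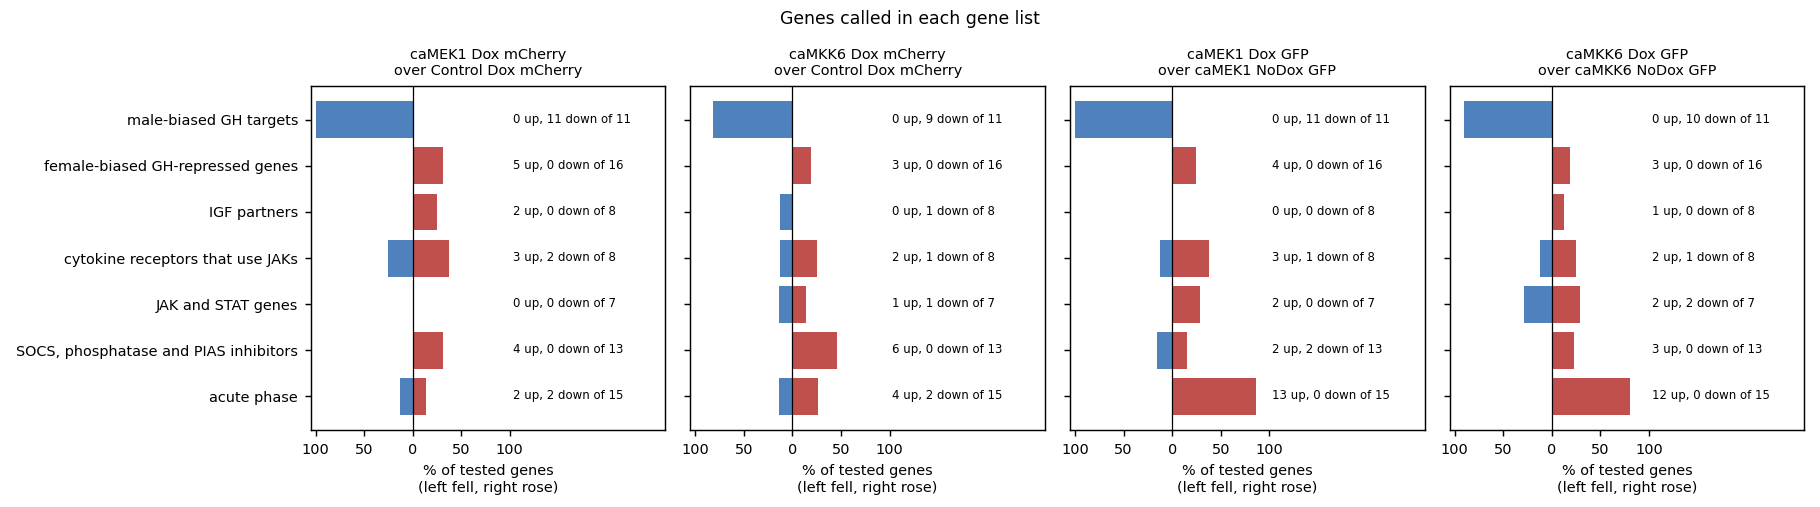
Share of the tested genes of 7 lists that fell (left, blue) or rose (right, red) at a limma adjusted p below 0.05, in percent, in the 4 comparisons of kinase mice with their comparators, with the counts printed. The male-biased growth hormone targets fall in 9 to 11 of 11, and the acute phase genes rise in 13 and 12 of 15 in GFP cells.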

How the data were processed

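Bulk RNA of 23 liver libraries was analysed from the table of FPKM values (fragments scaled to gene length and library depth) that the authors deposited for 70 libraries. Per the submitters' processing notes, reads were trimmed with cutadapt 1.12 and aligned with STAR 2 to mm10. The counting tool and annotation are not given in the sources used here. The table's entries are 21859 genes and 4 reporter and transgene sequences, and 0 columns were left without a sample. Gene places and exon lengths came from GENCODE release 21 of mouse, where 21191 gene IDs were found and 668 were not. With these lengths every FPKM value below 1000 reads (100% in each library) converted to a whole number of reads, to a tolerance of 0.02 reads, which gave the depths.

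Groups came from the labels. One limma 3.58.1 fit in R 4.3.3 (lmFit, then eBayes with a trend) on log2(FPKM + 1) held all 23 libraries in 9 groups (14 residual degrees of freedom), over the 10371 genes with 2 libraries or more at 1 FPKM or above. Tests were two-sided, with the Benjamini-Hochberg adjustment over all genes of a comparison and calls at an adjusted p below 0.05. A fold change on the log2(FPKM + 1) scale understates the change of low genes. No p was adjusted across the 12 comparisons. The fit was checked on simulated data.

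The mCherry and GFP libraries of a mouse pair by design, and the residuals of the same mouse correlated at r of 0.462 (Control), 0.576 to 0.592 (caMEK1) and 0.817 (caMKK6). Alternatives were a pseudocount of 0.1, no filter (16511 genes), median scaling, quantile normalization, the mouse as a random or fixed replicate block, another comparator, voom on the recovered reads (10070 genes) and each library left out in turn. The members, the gene lists and the tests were chosen with earlier results of these data known. All members were named, and of each list up to 3 called genes with the largest change in a comparison could be named, with the 3 genes of at least 5 FPKM most like each member. Start-site windows are RefSeq sequences, and windows on mouse chromosome 18 were left out. Python 3.11.15, numpy 2.4.6, pandas 2.3.3, scipy 1.17.1 and matplotlib 3.10.9 were used. Every liver library entered the test. One listed gene is not reported here and was left out of its list.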

Additional observations from a re-analysis of the deposited data

Results flagged for a closer look

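The change of 2 members differed between the kinases. Igf1 and Stat5b were lower in caMEK1 mCherry cells than in caMKK6 mCherry cells, with log2 fold changes of -0.95 and -0.65. Over all tested genes 27.2% were lower and the median was -0.31, so 2 of 8 is not above the background. Both calls were lost after scaling to a common median, and the kinases differ in dose as well.

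Transgene RNA was found outside its own cells. The human MKK6 sequence was at 1.51 and 30.9 FPKM in GFP cells of caMKK6 mice on doxycycline, at 0.0845 FPKM in untreated caMKK6 GFP library 2, at 0.079 FPKM in untreated Control GFP library 1, whose mouse carries neither kinase, and at 0.167 FPKM in caMEK1 mCherry library 3. The frog MEK1 sequence was at 0.133, 0.238 and 0.199 FPKM in GFP cells of the 3 caMEK1 mice on doxycycline and at 0.151 FPKM in caMKK6 mCherry library 2. Its part in the levels of the axis genes in GFP cells was not tested.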

How the results depend on the processing

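Over all alternatives, none of the 232 values of the 18 called member changes turned its direction, and 192 of them were still called and 40 were not. Called in every alternative were Ghr, Igf1 and Stat5b in caMEK1 mCherry cells, Ghr and Stat5b in caMEK1 GFP cells and Igf1 between the colours of caMEK1 mice. Of 1914 alternative counts of list genes 1569 were within 1.5 times the count given. The lowest members rest on few reads, which limits Socs2 and Cish most. Causes of the shifts below were not tested.

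The replicate block, the mouse, moved counts between colours of the same mice. Of 10371 tested genes, those called in caMEK1 mice became 1994 with a random and 1277 with a fixed mouse effect, beside 488 without, with 3 members in each. In caMKK6 mice they became 2592 and 954, beside 444, with 2 members in each. In Control mice they became 1950 and 6, beside 11. With the block no other call of a member changed.

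Median scaling called 4 members in caMKK6 mCherry cells, where 1196 of 10371 tested genes rose and 1921 fell. It called 184 genes between the colours of caMKK6 mice, 4 genes between the colours of Control mice, and 1809 genes and 0 members between the kinases. There Stat5a turned to 0.17, and to -0.21 between the colours of caMKK6 mice. Quantile normalization called 2462 genes and 3 members in caMEK1 GFP cells, 199 genes between the colours of caMKK6 mice (Stat5a -0.0562), 1742 genes and 0 members between the kinases, 5 genes for doxycycline in Control GFP cells and 3 between Control colours, and put Igf1 in caMKK6 GFP cells at 0.11. Without the filter 15 and 50 genes were called in these Control comparisons. Voom called 2 and 6, and 10 for the difference between the kinases in GFP cells. Cish in caMKK6 mCherry cells turned to 0.033 at a pseudocount of 0.1 and 0.0227 in voom.

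With the other comparator 5 members were called in caMKK6 mCherry cells, 3 in caMEK1 GFP cells and 1 in caMKK6 GFP cells, beside 2, 6 and 3 in the main comparisons. The share of all tested genes called with that comparator is not given here, so these counts are not read as a result about the members. Values that turned were Socs2 in caMEK1 (0.26) and caMKK6 mCherry cells (0.0275), Foxa2 in caMKK6 mCherry cells (-0.82), Socs2 (-0.12), Cish (-0.32), Jak3 (-0.016) and Vsig4 (-0.0061) in caMEK1 GFP cells, and Igf1 (0.0088) and Marco (-0.018) in caMKK6 GFP cells.

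Leaving out 1 library at a time gave 1412 (without Control library 2) to 2762 genes in caMEK1 mCherry cells, 1662 to 3904 genes and 0 to 2 members in caMKK6 mCherry cells, and 3 to 6 members in caMEK1 GFP cells. In caMKK6 GFP cells it gave 206 genes (without GFP library 1) to 3950 (without GFP library 2) and 0 to 4 members. Between colours it gave 193 to 809 genes in caMEK1 mice, 261 to 1478 genes and 0 to 1 members in caMKK6 mice and 0 to 2 genes in Control mice. Between the kinases it gave 2090 to 3671 genes and 0 to 2 members, for doxycycline in Control GFP cells 0 to 3 genes, for each untreated genotype 0 to 1, and for the difference between the GFP changes 3 to 976. Without caMEK1 mouse 3 in both colours that difference had 163 genes, and between the kinases 1 member was called and Socs2 stood at -0.0442.

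Member values whose sign turned with a library were not called in the report. In caMEK1 mCherry cells Socs2 ran from -1.36 to 0.32 and Cish from -1.56 to 0.14. In caMKK6 mCherry cells Socs2 ran from -1.40 to 0.28, Cish from -0.87 to 0.83 and Bcl6 from -0.84 to 0.83. In caMKK6 GFP cells Cish ran from -0.57 to 0.0225 and Bcl6 from -1.79 to 0.18. Between colours Bcl6 ran from -0.0273 to 0.43 in caMEK1 mice, and in caMKK6 mice Ghr from -1.47 to 1.06, Igfals from -2.48 to 0.49, Stat5a from -0.0401 to 0.11, Cish from -0.71 to 0.48 and Bcl6 from -0.68 to 1.29. Between the kinases Ghr ran from -1.51 to 0.52, Igfals from -0.70 to 1.58, Socs2 from -0.35 to 0.43 and Bcl6 from -1.64 to 0.0349.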
